A study of Rattus norvegicus with 6 samples.

Results

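Accessible chromatin sites (ACS) were examined at 10 genes that lie at human type 2 diabetes risk loci. Every site whose nearest annotated gene was *Cdkal1*, *Slc30a8*, *Kcnq1*, *Ide*, *Jazf1*, *Camk1d*, *Adamts9*, *Thada*, *Zmiz1* or *Mtnr1b* was taken, whatever its accessibility. This gave 117 of the 101603 distinct ACS, at 8 of the 10 genes. *Cdkal1* and *Jazf1* were not analysed here, since no site of the table names them as nearest gene.

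The sites were mapped by ATAC-seq, in which the Tn5 transposase inserts sequencing adapters into open chromatin and each insertion is counted as an integration. Islets came from Sprague-Dawley rats. The Adult group had 3 libraries (replicates 4, 5 and 6), each from 1 male rat of around 90 days, and the P10 group had 3 libraries (replicates 1, 2 and 3), each from the pooled 10-day-old pups of 1 litter, of both sexes. No genetic change or treatment is named for either group. Age, sex and a single animal against a litter pool therefore cannot be told apart in what follows. The question was how accessibility at these sites differed between newborn islets, whose β-cells are immature, and adult islets.

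Genome-wide association studies in people link common variants at these loci to diabetes risk, and many of the linked variants lie outside coding sequence, often in regulatory elements that are open in islets. A variant is named after a nearby gene, which need not be the gene it acts on. Among the proteins, the products of *Slc30a8* and *Ide* handle the insulin granule and the hormone itself, those of *Kcnq1*, *Mtnr1b* and *Camk1d* act in excitability and signalling, and those of *Zmiz1*, *Adamts9* and *Thada* have wider roles. Human risk variants were not placed on the rat genome here, so no site below is said to hold one.

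At *Slc30a8*, *Kcnq1*, *Ide*, *Adamts9* and *Zmiz1* an accessible site overlapped the annotated gene start in Rn5, the build of the sites. Starts in RefSeq's build GRCr8 could be matched by gene ID for 4 of the 8 genes, *Ide*, *Adamts9*, *Zmiz1* and *Thada*. Shown for *Ide*, *Adamts9* and *Zmiz1* are the 250 bases before the start of the same gene in GRCr8. Whether the starts of the builds correspond was not checked, and *Adamts9* lies on the plus strand of Rn5 but the minus strand of GRCr8. The sequences were not used in the comparisons below, which rest on the Rn5 sites. They run from 5′ to 3′ on the strand of the gene. Capitals mark a match, on either strand, to CCAAT (the CCAAT box), GGGCGG (the GC box) or CAGGTG (an E-box).
Ide, chr1:244514527-244514776, minus strand: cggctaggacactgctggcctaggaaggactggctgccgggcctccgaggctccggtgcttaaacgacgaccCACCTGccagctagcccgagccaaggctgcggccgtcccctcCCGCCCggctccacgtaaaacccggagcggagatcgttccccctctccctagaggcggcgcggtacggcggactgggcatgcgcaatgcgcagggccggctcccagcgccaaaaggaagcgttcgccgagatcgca
Adamts9, chr4:127019877-127020126, minus strand: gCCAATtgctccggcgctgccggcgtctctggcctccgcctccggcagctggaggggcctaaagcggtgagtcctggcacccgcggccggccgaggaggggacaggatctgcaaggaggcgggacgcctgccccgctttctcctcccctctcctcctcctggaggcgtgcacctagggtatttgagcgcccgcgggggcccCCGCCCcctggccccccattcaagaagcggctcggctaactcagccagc
Zmiz1, chr16:1033910-1034159, plus strand: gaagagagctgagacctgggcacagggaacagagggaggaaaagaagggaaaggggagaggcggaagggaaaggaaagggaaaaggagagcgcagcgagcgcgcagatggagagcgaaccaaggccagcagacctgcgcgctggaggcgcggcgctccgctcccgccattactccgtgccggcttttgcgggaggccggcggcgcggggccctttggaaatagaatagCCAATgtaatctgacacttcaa
These 3 windows are rich in G and C, at 69.2% for *Ide*, 71.6% for *Adamts9* and 61.6% for *Zmiz1*, against a median of 52% over 27457 rat promoters of the same length. The window of *Thada*, which had no accessible site at its start, is not shown. It was not rich in G and C, at 48.4%, and held 3 CCAAT boxes. The *Ide* window held 1 GC box and 1 E-box, that of *Adamts9* 1 CCAAT box and 1 GC box, and that of *Zmiz1* 1 CCAAT box, with no overlap between matches. Of all promoters, 34.3% held CCAAT, 32.4% GGGCGG and 15.6% CAGGTG on either strand. The TATA box TATAAA, the cyclic AMP response element TGACGTCA, the forkhead motif TGTTTAC and the AP-1 motif TGANTCA, also searched on both strands, were in none of these 3 windows and in 13.1%, 1.70%, 3.25% and 6.36% of all promoters.

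The libraries held 7916919 to 11903909 integrations in ACS in adults and 13491534 to 21168463 in P10 islets. Correlations of log2 counts over all sites were 0.927 to 0.956 for the 6 pairs of the same age and 0.895 to 0.919 for the 9 pairs of different age. As a check of the tissue, 7 of 9 endocrine marker genes had sites, including a site at the gene start of *Ins1*, *Ins2*, *Gcg*, *Sst*, *Iapp*, *Pdx1* and *Nkx6-1*. Sites nearest to markers of other cells that an islet preparation can hold were found too. These too included a site at the gene start of *Ptf1a*, *Krt19*, *Sox9*, *Cftr*, *Kdr*, *Col1a1*, *Col1a2*, *Dcn* and *Pdgfrb*. At *Cpa1*, *Ctrb1*, *Prss1*, *Pnlip*, *Cela2a*, *Spp1*, *Cdh5*, *Flt1*, *Pecam1* and the 3 immune genes no site lay at the gene start. The sums of these genes hold other sites only. Summed over their sites, 4 endothelial genes had 355 to 425 CPM (integrations scaled to library size) in adults and 302 to 310 in P10 islets, 6 acinar genes 362 to 407 and 343 to 357, and 4 ductal genes 248 to 288 and 204 to 244, so these 3 lists did not overlap between ages. The sums of 26.2% of all single nearest genes did not overlap between ages either. The members of a list did not move alike. Their sums are called Up (higher in adults) or Down by the limits given below, as were 10.5% and 7.63% of all genes. *Ptf1a* gave most of the acinar sum, at 280 ± 24.6 CPM (SD, n = 3) in adults and 239 ± 20.5 at P10, while *Prss1* was called Down (log2 fold change -0.85) and *Pnlip*, *Cela2a* and *Cpa1* had -0.52, -0.24 and -0.12. *Cftr* was called Up among the ductal genes, at 114 ± 24.7 and 74.5 ± 18.1 CPM, and *Cdh5* and *Kdr* among the endothelial genes. At *Prss1*, *Cftr* and *Kdr* the ages overlapped despite the call. The other ductal genes *Krt19*, *Sox9* and *Spp1* had log2 fold changes of 0.25, 0.076 and -0.18, and the endothelial genes *Flt1* and *Pecam1* 0.30 and -0.13. Of the endocrine genes, the sums of *Ins1* (-0.59) and *Ins2* (-0.38) were called Down and that of *Nkx6-1* (0.35) Up. The 4 stromal genes had 350 to 418 and 322 to 354 CPM, the 7 endocrine genes 705 to 787 and 717 to 896, and the 3 immune genes 22.7 to 31.02 and 24.9 to 34.8, and no marker gene with a site was at 0 in every library. The part of cell composition in the results below was not tested. In such bulk libraries, fewer cells of a type and less open chromatin per cell cannot be told apart.

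A site was called Up when it was more accessible in adults and Down when it was more accessible in P10 islets, at a p-value under 0.05 and an adjusted p under 0.2 in edgeR's quasi-likelihood test over all ACS, the limits that the study used. Of the 117 sites, 18 (15.4%) were called Up and 7 (5.98%) Down, where over all ACS 12.3% were called Up and 6.63% Down, or 18.9% in either direction. The shares at the diabetes genes were thus near those of the whole table. The log2 fold changes, Adult over P10, ran from -1.95 to 1.32 with a median of 0.10 and an SD of 0.53, against a median of -0.0076 and an SD of 0.55 over all ACS. The counts of the ages did not overlap, after scaling, at 36 sites or 30.8%, against 24.7% of all ACS, with adults above at 26 and below at 10. Depth was also ordinary, at a median of 68.8 integrations per site and library against 64.8 for all ACS, and 8 sites had a mean under 20.

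These directions are relative to the bulk of the sites, since the libraries were scaled by trimmed mean of M-values (TMM) within ACS. With total sequenced reads as library sizes the median of all ACS moved to -0.84, so that 0 of the 117 sites were called Up and 61 Down, and 9 of the 18 Up sites had a fold change below 0. With plain column sums the median was -0.10, and 13 sites were called Up and 10 Down. Leaving out 1 library moved the counts from 18 Up and 7 Down to 9 and 2 (without adult replicate 4), 7 and 2 (P10 replicate 2) and 9 and 4 (P10 replicate 3). Of the 25 called sites, 8 were called in each of the 6 fits that left out 1 library. These were 2 at *Slc30a8*, 3 at *Zmiz1* and 1 each at *Adamts9*, *Thada* and *Mtnr1b*.

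By class, 99 sites were distal, 11 proximal and 7 at the transcription start site (TSS), as the deposited table classes them by distance; its TSS sites lie within 999 bp of a gene start. The distal class held 16 Up and 6 Down sites, the proximal class 1 Up, and the TSS class 1 Up and 1 Down. Over all ACS, 13.8% of distal sites were Up and 6.45% Down, against 11.2% and 6.71% of proximal sites and 2.73% and 7.87% of TSS sites. Members lay inside their nearest gene more often than ACS in general, at 45.3% against 22.1%. Of the 51 sites inside a gene and outside the TSS class, 12 were Up and 1 Down, where 16.7% and 6.62% of such sites in the whole table were. Of the 44 upstream sites 4 were Up and 1 Down, where 12.3% and 6.61% of all upstream sites were. Of the 14 downstream sites 0 were Up and 4 Down, where 12.5% and 6.22% of all downstream sites were, and these 4 lie at *Slc30a8* and *Mtnr1b*. The plot by distance from the gene start shows all 117 sites.

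**Figure D1:**
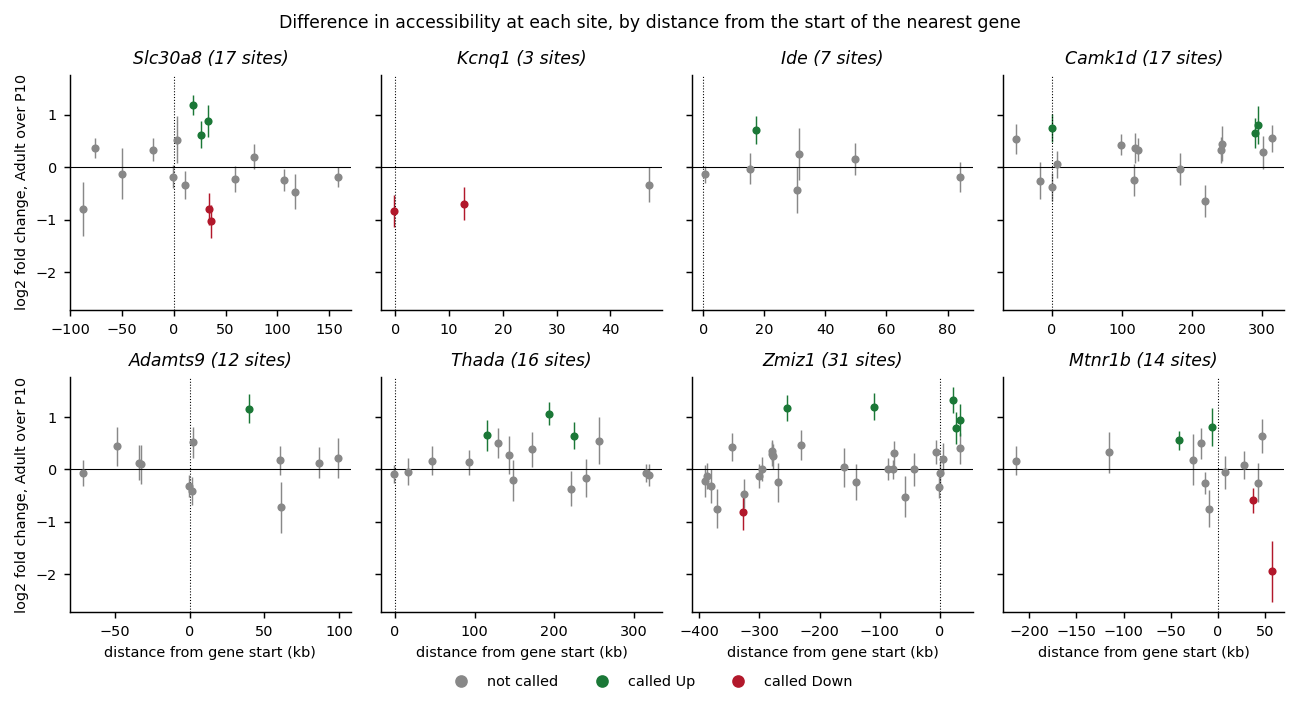
Log2 fold change of accessibility (Adult over P10, y axis) at each of the 117 sites against the distance from the start of its nearest gene in kb (x axis, positive in the direction of transcription), 1 panel per gene. Points are edgeR estimates after TMM scaling and bars are standard errors; green sites were called Up, red sites Down and grey sites neither. Called Up sites of *Camk1d*, *Thada* and *Adamts9* lie inside the gene, whereas those of *Zmiz1* lie on both sides of its start.

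*Slc30a8* encodes the zinc transporter that loads zinc into insulin granules, where the metal packs the hormone into crystals. It lies on chromosome 7 of Rn5 from 92476024 to 92508810 on the plus strand and had 17 sites, 3 of them Up and 2 Down. Its most accessible site was not the promoter but lay inside the gene, 18341 bp from the start (chr7:92494365-92495355). Here and below, the most accessible site of a gene is that with the highest mean CPM, not corrected for its width. This site held 765, 414 and 437 integrations in adult replicates 4, 5 and 6 and 598, 275 and 479 in P10 replicates 1, 2 and 3, or 69.1, 40.3 and 56.3 CPM against 27.8, 19.6 and 25.3. All adult libraries stood above all P10 libraries. The means were 55.3 ± 14.4 CPM (SD, n = 3) and 24.2 ± 4.20, the log2 fold change was 1.19 with a standard error of 0.19, and the edgeR adjusted p was 0.000129.

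The other called sites of *Slc30a8* bracketed the 3′ end of the gene and went in opposite directions. The site that overlaps the gene end (chr7:92508707-92508981) had 6.05, 4.48 and 6.06 CPM in adults and 2.88, 3.92 and 2.22 at P10, with a log2 fold change of 0.89 (standard error 0.30, edgeR adjusted p = 0.0685). Without P10 replicate 3 it was 0.70 and no longer called. The site 2810 bp past the gene end (chr7:92511620-92512085) went the other way, at 2.26, 3.51 and 2.06 CPM in adults and 5.16, 4.64 and 6.34 at P10, without overlap. Its log2 fold change was -1.03 (standard error 0.31, edgeR adjusted p = 0.0342). A further Down site between them, 1504 bp past the end, had a log2 fold change of -0.80, and the remaining Up site, inside the gene, had 0.62; both were named after their values were seen. The Down site lost its call without adult replicate 4 (-0.59), P10 replicate 2 (-0.84) or P10 replicate 3 (-0.83), and the Up site held it only without adult replicate 5 (0.70), with 0.56 to 0.66 in the other 5 fits.

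The TSS site of *Slc30a8* (chr7:92475529-92476293) was not called. It had 21.5, 13.4 and 15.6 CPM in adults and 23.4, 15.5 and 18.3 at P10, and the ages overlapped. Its log2 fold change was -0.18, with a 95% interval from -0.62 to 0.26. The 12 sites that were not called ran from -0.80 to 0.53, and the lowest of them is one of 3 sites of this gene with a mean under 20 integrations. The plot of the 17 sites in chromosome order shows the open site in the gene body and the change of direction at its end.

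**Figure D2:**
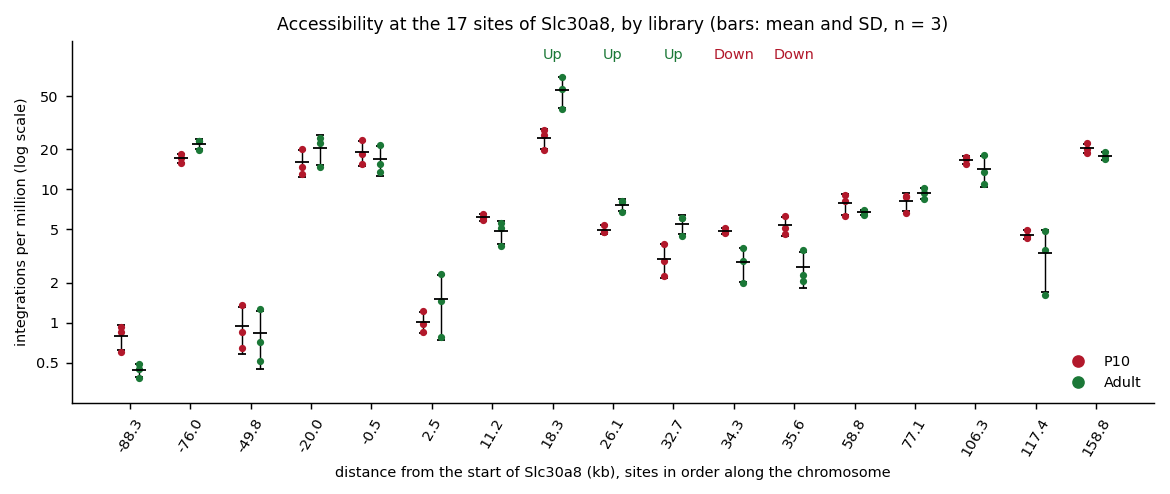
Integrations in CPM after TMM scaling (log scale) in each library at the 17 sites of *Slc30a8*, ordered along the chromosome and marked by their distance from the gene start in kb. Dots are libraries, red for P10 and green for Adult, bars give the mean and SD (n = 3), and called sites carry Up or Down above them. The site at 18.3 kb is the most accessible, at 55.3 CPM in adults and 24.2 at P10, and is followed by 2 more Up sites and then 2 Down sites just past the gene end.

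*Ide* encodes insulin-degrading enzyme, a metalloprotease that cleaves insulin and other small peptides. It lies on chromosome 1 from 263390397 to 263488576 on the minus strand and had 7 sites, 6 of them inside the gene. Its most accessible site was the TSS site (chr1:263488037-263489232), which overlaps the annotated gene start. This site had 43.7, 33.2 and 36.7 CPM in adults and 40.6, 42.5 and 41.7 at P10. The log2 fold change was -0.13 with a 95% interval from -0.47 to 0.20. Per kb of site, its level of 33.2 CPM was above that of 66.7% of all TSS sites, the highest share among the members. The TSS sites of *Zmiz1*, *Slc30a8*, *Adamts9* and *Kcnq1* were above 57.5%, 48.0%, 37.6% and 17.1%. Those of *Camk1d* were above 36.8% and 12.2%.

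Only 1 site of *Ide* was called, and it lies inside the gene, 17267 bp from the start (chr1:263471309-263471682). It had 6.87, 6.23 and 5.80 CPM in adults and 3.86, 4.21 and 3.54 at P10. The ages did not overlap, the log2 fold change was 0.71 (standard error 0.27), and the edgeR adjusted p was 0.111. The call was lost without adult replicate 4 (0.64), P10 replicate 2 (0.75) and P10 replicate 3 (0.64). The 6 sites not called ran from -0.44 to 0.25.

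*Kcnq1* encodes a voltage-gated potassium channel subunit that helps repolarise excitable cells. The gene is long, on chromosome 1 from 223154713 to 223490458 on the plus strand, but had only 3 sites, and a further 2 of the 4 sites with their midpoint in the gene were listed under another gene. All 3 were lower in adults, and 2 were called Down. The TSS site (chr1:223154390-223154854) had 3.07, 6.23 and 3.48 CPM in adults and 7.39, 9.99 and 5.71 at P10. Adult replicate 5 stood above P10 replicate 3, so the ages overlapped. On the log2 scale the site changed by -0.84 (standard error 0.30, edgeR adjusted p = 0.0828), and the call was lost without adult replicate 4 (-0.64), adult replicate 6 (-0.72) or P10 replicate 2 (-0.63).

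The second Down site of *Kcnq1* lies 12804 bp inside the gene (chr1:223167517-223167932). It had 2.17, 3.21 and 2.71 CPM in adults and 5.07, 4.42 and 3.59 at P10, without overlap. The log2 fold change was -0.70 (standard error 0.32) and the edgeR adjusted p of 0.195 was close to the limit. The call held only without adult replicate 5 (-0.85); it was lost without adult replicate 4 (-0.55), adult replicate 6 (-0.70), P10 replicate 1 (-0.58), P10 replicate 2 (-0.70) or P10 replicate 3 (-0.83). The third site had a log2 fold change of -0.33.

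*Mtnr1b* encodes a melatonin receptor, a G protein-coupled receptor that lowers cyclic AMP in β-cells. The gene is short, on chromosome 8 from 14446990 to 14461614 on the minus strand, and 13 of its 14 sites lay outside it. It had no TSS site. Its most accessible site lies 40906 bp upstream (chr8:14502520-14503140) and was called Up. It had 31.5, 23.6 and 29.0 CPM in adults and 18.7, 17.7 and 20.8 at P10, without overlap. The log2 fold change was 0.55 (standard error 0.19, edgeR adjusted p = 0.0599), and the call was lost without adult replicate 4 (0.46) and P10 replicate 2 (0.49). The other Up site, a proximal one 6297 bp upstream (chr8:14467911-14468235), was named after its values were seen. It had 3.16, 2.43 and 3.996 CPM in adults and 1.30, 1.64 and 2.48 at P10, so the ages overlapped, with a log2 fold change of 0.81 (standard error 0.36, edgeR adjusted p = 0.191). It held its call only without adult replicate 5 (0.97) or P10 replicate 3 (1.10), and had 0.59 to 0.81 in the other 4 fits.

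Downstream of *Mtnr1b*, 2 sites were called Down. The farther, 56836 bp from the start (chr8:14404778-14405026), had the lowest fold change of all 117 sites and few integrations, with 7, 0 and 5 in adults and 31, 32 and 23 at P10. In CPM these were 0.633, 0 and 0.645 against 1.44, 2.28 and 1.22. The log2 fold change was -1.95 with a standard error of 0.58 (edgeR adjusted p = 0.0321), and it ran from -2.48 to -1.33 over the fits that left out 1 library. The nearer, 36614 bp from the start (chr8:14425000-14425647), had 7.86, 5.94 and 9.28 CPM in adults and 10.6, 12.8 and 11.2 at P10. Its log2 fold change was -0.59 (standard error 0.24, edgeR adjusted p = 0.133). That call was lost without adult replicate 4 (-0.61), adult replicate 5 (-0.43), P10 replicate 2 (-0.53) or P10 replicate 3 (-0.62). The 10 sites not called ran from -0.75 to 0.64.

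*Camk1d* encodes a calcium/calmodulin-dependent protein kinase. It spans chromosome 17 from 78187614 to 78591805 on the plus strand, and 15 of its 17 sites lie inside it. Just after the start, 2 TSS sites lie side by side, and their values moved in opposite directions. The first (chr17:78187713-78188074) had 4.88, 7.89 and 5.29 CPM in adults and 7.90, 8.20 and 7.40 at P10, with a log2 fold change of -0.38 (95% interval -0.91 to 0.16). The second (chr17:78188125-78188679) had 7.41, 10.2 and 5.80 CPM in adults and 4.46, 4.64 and 4.92 at P10, without overlap. It was called Up with a log2 fold change of 0.75 (standard error 0.27, edgeR adjusted p = 0.0842). Without adult replicate 5 the first site was called Down (-0.63) and the second lost its call (0.51), and the second was also lost without P10 replicate 2 (0.73).

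Farther into *Camk1d*, all but 3 of the distal sites inside the gene had a positive fold change. The most accessible site of the gene lies 99303 bp from the start (chr17:78286917-78287634), at 19.2 ± 2.38 CPM (SD, n = 3) in adults and 14.3 ± 1.80 at P10. Its ages did not overlap, but its log2 fold change of 0.43 was not called (edgeR adjusted p = 0.218). Both distal Up sites lie beyond it. The first (chr17:78477258-78477579) had 5.42, 5.36 and 5.67 CPM in adults and 3.72, 3.64 and 3.07 at P10, and the second (chr17:78481568-78481848) 2.71, 3.21 and 3.22 against 2.18, 1.85 and 1.16. Their log2 fold changes were 0.66 and 0.81 (standard errors 0.28 and 0.36, edgeR adjusted p = 0.165 and 0.185). The first was lost without adult replicate 4 (0.66), adult replicate 6 (0.63), P10 replicate 2 (0.67) or P10 replicate 3 (0.56), and the second without adult replicate 4 (0.89), adult replicate 5 (0.76), adult replicate 6 (0.77), P10 replicate 2 (0.83) or P10 replicate 3 (0.57).

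*Zmiz1* encodes a nuclear cofactor related to the PIAS family that works with several transcription factors. It lies on chromosome 16 from 1726706 to 1932218 on the plus strand and had 31 sites, more than 96.9% of all nearest genes, 25 of them upstream as far as 390774 bp. A further 9 of the 15 sites with their midpoint in the gene were listed under another gene. It had 5 Up sites and 1 Down site, and the Down site was called in 0 of the 6 fits without 1 library. The site with the highest fold change of all members lies 21680 bp inside the gene (chr16:1748386-1748646), with 16.2, 14.3 and 15.6 CPM in adults and 8.55, 5.21 and 4.60 at P10. Its log2 fold change was 1.32 (standard error 0.25, edgeR adjusted p = 0.000729). The next 2 sites along the gene were Up as well, chosen here after their values were seen, with log2 fold changes of 0.79 and 0.94. The first lost its call without adult replicate 5 (0.51), P10 replicate 2 (0.75) or P10 replicate 3 (0.69), and the second without adult replicate 4 (0.80), P10 replicate 2 (0.78) or P10 replicate 3 (0.71); without P10 replicate 1 the second was 1.42.

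The remaining 2 Up sites of *Zmiz1* lie far upstream. At 255012 bp (chr16:1471694-1472222) adults had 20.5, 14.997 and 18.3 CPM and P10 islets 11.4, 5.35 and 6.98. At 109270 bp (chr16:1617436-1617882) they had 14.4, 11.98 and 8.77 against 5.58, 5.99 and 3.86. Neither site overlapped between ages, and the log2 fold changes were 1.17 and 1.20 (standard errors 0.25 and 0.26, edgeR adjusted p = 0.00256 and 0.00288). The most accessible site and the TSS site differed less. Per kb of site, however, the most accessible one had 39.1 CPM, against 41.2 at the Up site 21680 bp inside the gene. The most accessible site of the gene, 78012 bp upstream (chr16:1648694-1649475), had 30.7 ± 2.84 CPM (SD, n = 3) in adults and 30.5 ± 6.46 at P10, a log2 fold change of 0.0071 (95% interval -0.36 to 0.38). The TSS site (chr16:1726514-1727077) had 15.4 ± 3.40 and 16.1 ± 1.95 CPM, a log2 fold change of -0.064 (95% interval -0.50 to 0.37).

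*Adamts9* encodes a secreted metalloprotease that cleaves proteoglycans of the extracellular matrix. It lies on chromosome 4 from 188409401 to 188604215 on the plus strand of Rn5 and had 12 sites. Its most accessible site was the TSS site (chr4:188408911-188409752), with 11.4, 15.6 and 16.9 CPM in adults and 18.4, 20.5 and 15.5 at P10, a log2 fold change of -0.32 (95% interval -0.75 to 0.12). The only called site lies 39625 bp inside the gene (chr4:188449026-188449399). Per kb of site it had 20.1 CPM, against 19.5 at the TSS site. Adults had 11.3, 9.74 and 10.1 CPM there and P10 islets 2.84, 6.13 and 5.07. The ages did not overlap, and the log2 fold change was 1.16 (standard error 0.27, edgeR adjusted p = 0.00616). Of the sites of the 4 endothelial marker genes, 10 of 50 were Up and 1 Down, and of those of the 4 stromal genes 6 of 51 were Up and 3 Down. Over all ACS, 12.3% were Up and 6.63% Down. The part of these cells in the difference at *Adamts9* was not tested.

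*Thada* encodes a large protein that takes part in methylation of transfer RNA. It spans chromosome 6 from 7364891 to 7677173 on the minus strand, and 13 of its 16 sites lie inside it. It had no TSS site. Its most accessible site lies past the gene end (chr6:7361859-7362896), with 39.5 ± 3.77 CPM (SD, n = 3) in adults and 41.5 ± 6.33 at P10, a log2 fold change of -0.069 (95% interval -0.41 to 0.28). Against this site, 3 sites deep inside the gene were Up. The strongest, 193768 bp from the start (chr6:7483405-7483829), had 15.5, 14.3 and 16.6 CPM in adults and 8.92, 6.49 and 6.66 at P10, without overlap. Its log2 fold change was 1.07 (standard error 0.23, edgeR adjusted p = 0.00238).

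The other Up sites of *Thada*, at chr6:7451590-7452140 and chr6:7561321-7561721, had log2 fold changes of 0.64 and 0.65 (standard errors 0.26 and 0.30, edgeR adjusted p = 0.134 and 0.197). The first had 8.77, 7.50 and 6.83 CPM in adults and 5.81, 4.64 and 4.33 at P10. The second had 6.05, 4.58 and 6.19 CPM against 4.65, 3.28 and 2.70, so P10 replicate 1 stood above adult replicate 5. The first was lost without adult replicate 4 (0.54), P10 replicate 2 (0.58) or P10 replicate 3 (0.54), and the second without adult replicate 4 (0.59), adult replicate 6 (0.58), P10 replicate 2 (0.58) or P10 replicate 3 (0.47). The 13 sites not called ran from -0.37 to 0.55. The plot of the called site with the smallest p-value of each gene sets these sites side by side by library.

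**Figure D3:**
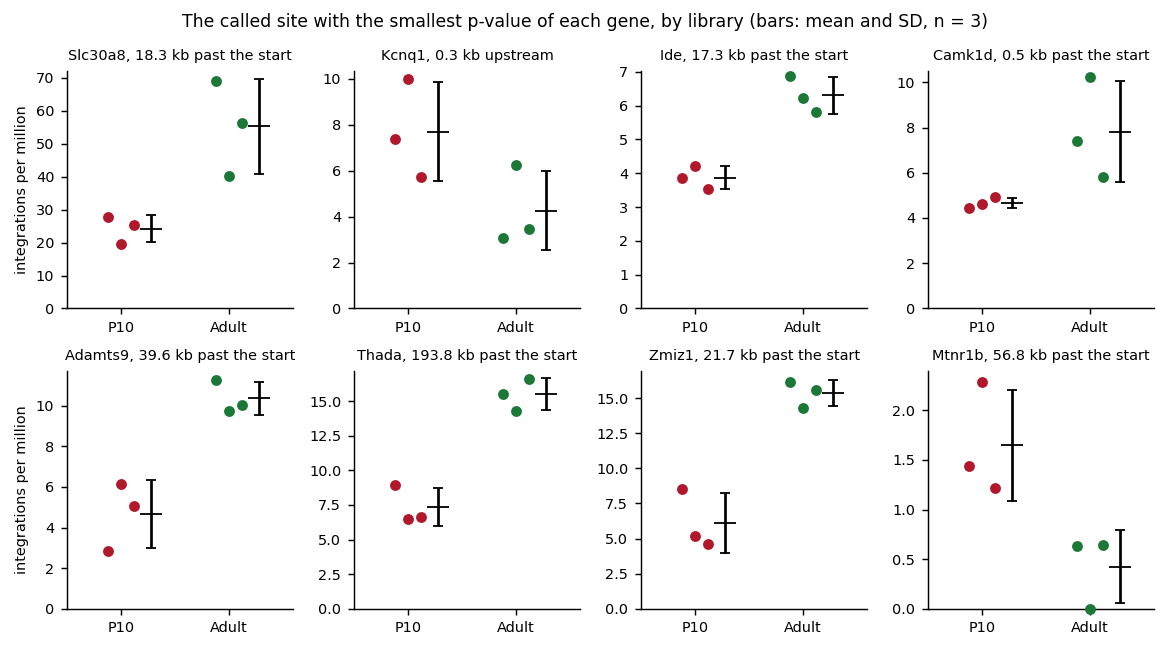
Integrations in CPM after TMM scaling (y axis, from 0) in each library at the called site with the smallest p-value of each of the 8 genes, with its distance from the gene start. Dots are libraries, red for P10 and green for Adult, and bars give the mean and SD (n = 3). The ages are separate at all sites but that of *Kcnq1*. Since the sites were picked by their p-value for age, this follows largely from the choice, and 24.7% of all ACS have separate ages. The sites of *Kcnq1* and *Mtnr1b* are lower in adults and the other 6 are higher.

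The integrations of all sites listed under a gene were then summed, in the same test over 14776 nearest genes. Such a sum holds distant sites and leaves out sites in the gene that are listed under another. Besides *Kcnq1* and *Zmiz1*, this was so for 3 of the 10 sites with their midpoint in *Adamts9* and 1 of 16 in *Camk1d*. The sum of *Camk1d* was called Up and that of *Kcnq1* Down, and the other 6 were not called, where 10.5% of all genes were Up and 7.63% Down. *Camk1d* had 107, 119 and 122 CPM in adults and 96.9, 96.7 and 97.0 at P10, a log2 fold change of 0.26 (standard error 0.11, edgeR adjusted p = 0.178). *Kcnq1* had 7.43, 11.5 and 10.6 CPM against 15.3, 18.5 and 12.8, a log2 fold change of -0.67 (standard error 0.22, edgeR adjusted p = 0.0812). In both genes the ages did not overlap, which held for 26.2% of all genes.

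The *Camk1d* sum held its call only without P10 replicate 1. It lost it without adult replicate 4 (0.31), 5 (0.24) or 6 (0.22) and without P10 replicate 2 (0.26) or 3 (0.26), as did *Kcnq1* without adult replicate 4 (-0.49) or P10 replicate 2 (-0.53). The sum of *Slc30a8* was 191 ± 24.3 CPM (SD, n = 3) in adults and 161 ± 3.55 at P10, a log2 fold change of 0.24 that was not called (edgeR adjusted p = 0.240), although the ages did not overlap. Without adult replicate 5 it was called, at 0.35. It was also called, at 0.31, with only the sites within 100 kb of the nearer end of the gene, start or finish. The sum of *Zmiz1* was called without P10 replicate 1, at 0.31. The remaining sums were *Zmiz1* at 0.20, *Thada* at 0.12, *Mtnr1b* at 0.087, *Adamts9* at 0.070 and *Ide* at -0.042. With total reads as library sizes all 8 sums were called Down, against a median of -0.85 for all genes on that scale.

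Per kb of accessible sequence, the adult levels fell from *Zmiz1* (23.9 ± 0.979 CPM per kb, SD, n = 3) and *Slc30a8* (21.4 ± 2.73) through *Thada* (20.7 ± 0.841), *Ide* (18.6 ± 1.05), *Camk1d* (15.4 ± 1.07), *Mtnr1b* (15.3 ± 2.47) and *Adamts9* (13.2 ± 1.45) to *Kcnq1* (8.43 ± 1.81). *Zmiz1* and *Slc30a8*, *Slc30a8* and *Thada*, *Camk1d* and *Mtnr1b*, and *Mtnr1b* and *Adamts9* differed by less than the larger of their SDs. At P10 the mean of *Zmiz1* (20.7 ± 2.93) was above those of *Ide* (19.2 ± 1.58), *Thada* (19.0 ± 1.89) and *Slc30a8* (18.1 ± 0.399) by less than its own SD, and *Adamts9* (12.6 ± 1.11) was the lowest, with *Camk1d* (12.8 ± 0.0228) and *Kcnq1* (13.3 ± 2.46) close to it.

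**Figure D4:**
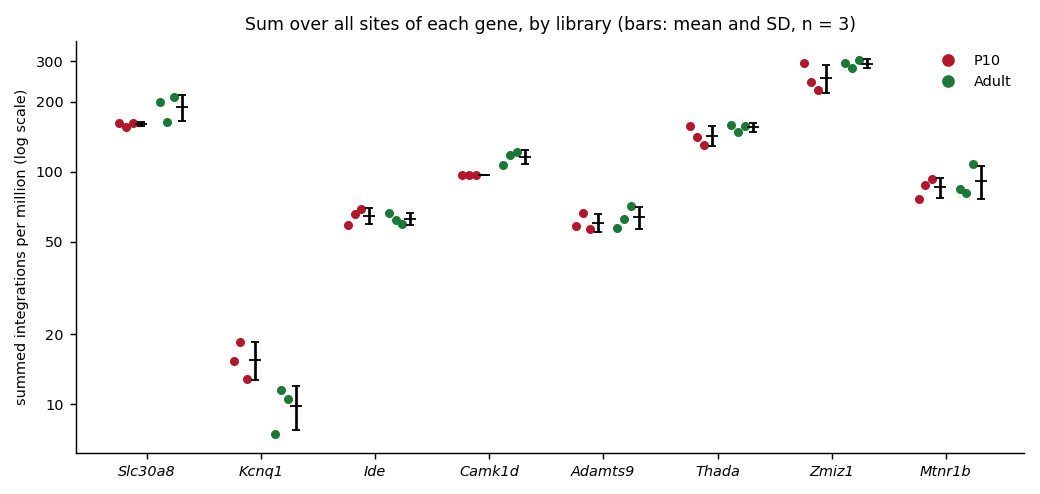
Integrations in CPM summed over all sites of each gene (y axis, log scale) in each library, with red for P10, green for Adult and bars for the mean and SD (n = 3). The ages are separate at *Slc30a8*, *Camk1d* and *Kcnq1*, with *Kcnq1* lower in adults, and overlap at the other 5 genes, and 26.2% of all genes have separate ages; the scale is relative to all sites, and with total reads as library sizes all 8 sums were lower in adults.

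A sum hides sites that move apart, so 2 comparisons within a gene were made, in which the library scale cancels. The first set the distal and proximal sites of a gene against its TSS sites in the same library, as a log2 ratio tested with limma over 7568 genes with both kinds. Of the 6 members with both kinds, 2 were called Up (a higher ratio in adults) and 0 Down, with estimates above 0 at all 6. Over all genes 24.3% were called Up and 4.64% Down, and the median difference was 0.15. *Slc30a8* had ratios of 3.12, 3.41 and 3.54 in adults and 2.62, 3.15 and 2.89 at P10, a difference of 0.47 (standard error 0.15, limma adjusted p = 0.0450). *Adamts9* had 2.08, 1.54 and 1.58 against 1.19, 1.14 and 1.30, a difference of 0.52 (standard error 0.18, limma adjusted p = 0.0590).

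The ages overlapped at *Slc30a8* and not at *Adamts9*, whose call was lost without adult replicate 4 (0.35). The other 4 genes were not called, with differences of 0.33 at *Kcnq1*, 0.32 at *Zmiz1*, 0.27 at *Ide* and 0.16 at *Camk1d*. Without adult replicate 5, *Zmiz1* (0.50) and *Camk1d* (0.39) were called. *Zmiz1* was also called without P10 replicate 1 (0.40), and *Ide* without adult replicate 6 (0.39).

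**Figure D5:**
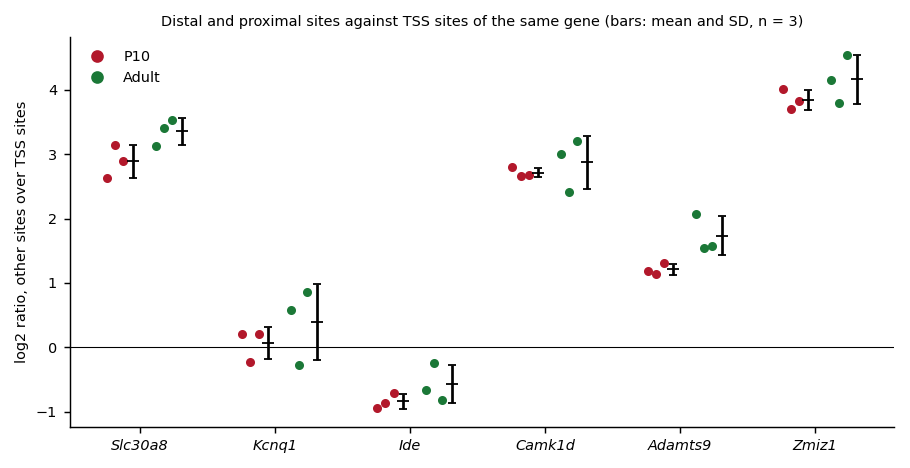
Log2 ratio of the distal and proximal sites of a gene to its TSS sites (y axis) in each library, for the 6 genes with both kinds, with red for P10, green for Adult and bars for the mean and SD (n = 3). The ratio is higher in adults on average at each gene, by 0.16 to 0.52, and was called at *Slc30a8* and *Adamts9*.

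The second comparison asked whether the sites of a gene differed from each other in their change with age, with edgeR's test of each site against the mean of its gene over 11461 genes. This test was chosen after the data had been seen. It called 6 of the 8 genes, where 43.8% of all genes were called and, among the 2000 genes with 12 to 31 sites, as these 6 have, 80.6%. The adjusted p was 5.48e-08 at *Slc30a8*, 1.23e-06 at *Zmiz1*, 0.00506 at *Mtnr1b*, 0.00527 at *Adamts9*, 0.0226 at *Camk1d* and 0.0316 at *Thada*. At *Ide* and *Kcnq1*, with 7 and 3 sites, it was 0.365 and 0.664. *Camk1d* lost its call without adult replicate 4, P10 replicate 2 or P10 replicate 3 (unadjusted p = 0.0697, 0.0518 and 0.0559 in the edgeR test), *Thada* without adult replicate 6 or P10 replicate 3 (0.0792 and 0.0729) and *Mtnr1b* without P10 replicate 2 (0.0790). *Ide* gained one without adult replicate 6 (unadjusted p = 0.0481, adjusted p = 0.119). In 6 members at least 2 sites were called, and in 3 of these, *Slc30a8*, *Zmiz1* and *Mtnr1b*, in both directions. Among all genes with at least 2 called sites 55.0% had both directions, and 61.8% of those with 12 to 31 sites. At *Zmiz1* this rests on its Down site, 326634 bp upstream (chr16:1400072-1400412), with a log2 fold change of -0.81 (edgeR adjusted p = 0.177), which was called in 0 of the 6 fits that left out 1 library (-0.96 to -0.53, the latter without P10 replicate 1).

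Other genes named at type 2 diabetes loci were listed for context, and 34 of 40 had sites. Their 390 sites held 48 Up and 34 Down, shares of 12.3% and 8.72%, again near those of all ACS. Of their 34 sums, 2 were Up and 3 Down. *Fto*, which encodes an RNA demethylase, had 131 ± 19.9 CPM (SD, n = 3) in adults and 82.0 ± 4.24 at P10, a log2 fold change of 0.67 (standard error 0.12, edgeR adjusted p = 0.00412). *Dgkb*, a diacylglycerol kinase, had 366 ± 48.7 and 251 ± 34.5 CPM, a log2 fold change of 0.54 (standard error 0.14, edgeR adjusted p = 0.0308). *Igf2bp2*, which encodes an RNA-binding protein, had 54.5 ± 9.76 and 81.9 ± 11.1 CPM, a log2 fold change of -0.58 (standard error 0.14, edgeR adjusted p = 0.0212). Each of these 3 sums was separate between the ages, which follows largely from their choice by p-value. Over all genes 26.2% of sums were separate.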

How the data were processed

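The authors dissociated islets, took 100000 cells per library through the Tn5 reaction, aligned reads to Rn5 with BWA 0.7.13, kept mapping qualities of at least 30, called peaks with MACS2 2.1.1 on the pooled samples of each age and deposited raw counts of integrations per site and library. Whether duplicates were removed is not given in the sources used here, so errors cover counts as deposited. The deposited table also holds the authors' own fold changes and p-values, which were not used, and the nearest gene of each site.

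The 338 repeated listings among 101941 were dropped. Counts of all 101603 sites were fitted with edgeR 4.0.16 (quasi-likelihood, TMM factors 0.930 to 1.04, no filter) in R 4.3.3, with Benjamini-Hochberg adjusted p-values; 95% intervals come from the same fit. Ratios used a pseudocount of 0.5 CPM and limma 3.58.1. limma voom and DESeq2 1.42.0, other scalings (column sums, or total sequenced reads per library as the study gives them), filters, and leaving out each library were tried. On simulated counts, 43.5% of 200 sites changed by 1 (log2) were called, 93.5% of gene sums and 74% of ratios. Only 200 features with a mean of at least 20 integrations were changed in each simulation. With so few changes the adjusted p limit is stricter than in the data, so these shares are not the sensitivity of the calls above. For each gene the text names the highest TSS site, the highest site and up to 3 called sites by p-value, and 3 called sums of the other list. Members, lists and markers were chosen with earlier results of these data known. Libraries are separate rats or litters, as the study describes.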

Additional observations from a re-analysis of the deposited data

How the results depend on the processing

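With 117 member sites, the count of Up sites was 18 and moved to 0 with total reads and 6 at an adjusted p under 0.05, and the count of Down sites was 7 and moved to 4 with DESeq2, 61 with total reads and 2 at an adjusted p under 0.05. Leaving out 1 library gave 7 to 22 Up and 2 to 8 Down. Over all ACS, 12504 Up and 6738 Down sites became 10447 and 10732 with column sums (49.3% of calls Up, from 65.0%), 1062 and 61663 with total reads, 7177 and 1945 at an adjusted p under 0.05, and 7973 to 13232 and 3285 to 7215 without 1 library. DESeq2 gave no adjusted p for 1 named site, the Down site of *Mtnr1b* at 56836 bp, so this site could not be among the 4 Down sites of that fit. Sums called, 2 of 8, became 1 with column sums, 8 with total reads, 1 without TSS sites, 0 at an adjusted p under 0.05 and 0 to 3 without 1 library. Ratios called, 2 of 6, became 1 at an adjusted p under 0.05 and 1 to 4 without 1 library, and the genes whose sites differed, 6 of 8, became 4 to 6.

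Signs turned mostly with total reads, where all values move down together. Sites turned at *Ide* (-0.12), *Camk1d* (-0.41, -0.067, -0.19 and -0.060), *Thada* (-0.21 and -0.23), *Zmiz1* (-0.86) and *Mtnr1b* (-0.28), and sums at *Slc30a8* (-0.60), *Camk1d* (-0.58), *Adamts9* (-0.77), *Thada* (-0.74), *Zmiz1* (-0.66) and *Mtnr1b* (-0.74). The other 19 turns were of 8 results near 0 that were not called, none beyond 0.14 in size. They were the highest site of *Zmiz1* (-0.0062 with DESeq2, -0.086 with column sums, -0.075 with a mean of at least 50, and from -0.14 to 0.17 without 1 library), its TSS site (from -0.20 to 0.096 without 1 library), the highest site of *Thada* (from -0.20 to 0.011 without 1 library), the sums of *Adamts9* (-0.021 with column sums, and from -0.014 to 0.14 without 1 library), *Mtnr1b* (-0.0024 with column sums, and from -0.050 to 0.16 without 1 library), *Thada* within 100 kb (-0.0076) and *Ide* (0.061 without TSS sites, and from -0.12 to 0.012 without 1 library), and the ratio of *Camk1d* (from -0.0038 to 0.39 without 1 library). The cause was not tested. No paired analysis was made, since the study names no link between the adult rats and the litters of pups. Sites with a mean under 20 integrations and 3 libraries a group limit what could be seen.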
